A study of Mus musculus with 12 samples.

Results

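The metallothionein genes Mt1 (ENSMUSG00000031765) and Mt2 (ENSMUSG00000031762) are described here in antibody-secreting cells (ASCs) of mouse bone marrow, spleen and thymus. They are 2 of the 32285 genes in the matrices. The genes were chosen by name with earlier results on their levels known, so their levels by tissue, by ribosomal class and by isotype are given without a test. The study sorted ASCs from 3-month-old female and male mice of a Prdm1-eYFP strain on a C57BL/6 background. All 6 groups carry that reporter of Prdm1, a regulator that ASCs express. The sort kept CD138-high, IgD-, CD90.2-, eYFP-positive cells, with or without B220. Each sex and organ gave a single 10x 5' gene expression library from a pool of 3 mice, so p-values measure the spread between these libraries, and sex cannot be told apart from the pool or the run.

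A cell was kept when its barcode stood in the filtered list, it held at least 500 unique molecular identifiers (UMIs, 1 per captured transcript) outside immunoglobulin genes, and its leading light-chain V gene held at least 50% of its light-chain V UMIs. Of 39949 listed barcodes, 9213 were kept. Bone marrow gave 1325 female and 1769 male cells, spleen 3661 and 1970, and thymus 133 and 355. Levels are counts per 1000000 UMIs outside immunoglobulin genes (CPM), with exact Poisson intervals at 95% that cover counting error only. All 7 ASC markers were detected in every library, with a summed level of 55166 to 108546 CPM. After scaling, Xist stood at 828 to 1368 CPM in the libraries labelled female and at 0.763 to 1.46 CPM in those labelled male. In summed cells such as these, fewer expressing cells and less RNA per cell cannot be told apart, so shares of cells are given beside the levels.

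Metallothioneins are small, cysteine-rich proteins that bind zinc and copper and buffer their free ions. MTF1, a zinc-sensing transcription factor, switches their genes on through metal response elements, and glucocorticoids, oxidative stress and inflammatory cytokines are known to raise them too. ASCs assemble disulfide-bonded antibody in a large secretory pathway, where zinc transporters of the Slc30a and Slc39a families move zinc across membranes.

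The 4 mouse metallothionein genes lie in a row on the plus strand of chromosome 8 (GRCm38, GENCODE M21). Mt4 spans 94137197 to 94139031, Mt3 94152607 to 94154146, Mt2 94172664 to 94173568 and Mt1 94179082 to 94180327. Mt2 and Mt1 are separated by 5513 bases. Because both genes were high in the same libraries, their annotated start regions were searched for the core of the metal response element, written TGCACNC or TGCGCNC, on both strands. RefSeq windows of 300 bases, 250 before and 50 after each annotated start, held 3 such cores for Mt1, 4 for Mt2, 1 for Mt3 and 1 for Mt4. Of 32851 RefSeq windows of this length, 25.7% held at least 1 core, 1.97% at least 3 and 0.517% at least 4. The stretches with the cores of Mt1 and Mt2 are printed 5' to 3' on the plus strand from RefSeq GRCm38.p6, with the cores in capitals. In the last pair the core lies on the minus strand and is seen as its reverse complement.
Mt1 chr8:94179054-94179083: gcggtcccgctgTGCACACtggcgctccag
Mt1 chr8:94179088-94179117: ctcTGCACTCcgcccgaaaagTGCGCTCgg
Mt2 chr8:94172383-94172412: cagcatcgcctcTGCACCCggcccctcggg
Mt2 chr8:94172478-94172507: tcgcagacccttTGCGCTCagctcctttgc
Mt2 chr8:94172556-94172585: tggggggagggcGTGTGCAggctctgtccc
Mt2 chr8:94172610-94172639: agaattcgggtcGTGCGCAggcccaggggc
The pair of Mt1 cores in the second stretch lies just after the RefSeq start at 94179089 and the start of GENCODE transcript Mt1-201 at 94179082, while transcripts Mt1-203 and Mt1-202 start further downstream, at 94179211 and 94179241. The RefSeq start of Mt2 is at 94172618, upstream of its GENCODE start. A match is a description of the letters, and which start these cells use was not analysed here.

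Mt1 was highest in bone marrow and lowest in thymus. In bone marrow its level was 276 CPM in the female library (1589 UMIs, interval 263 to 290) and 611 CPM in the male library (5720 UMIs, 595 to 627). In spleen it was 170 CPM for females (3625 UMIs, 164 to 175) and 148 CPM for males (1186 UMIs, 140 to 157). In thymus it was 49.5 CPM for females (14 UMIs, 27.1 to 83.1) and 96.2 CPM for males (119 UMIs, 79.7 to 115). The 3 tissues did not overlap, and the order bone marrow, spleen, thymus held within each sex. Spleen was lower than bone marrow 1.63-fold in females and 4.13-fold in males, and thymus lower than bone marrow 5.58-fold and 6.35-fold. The edgeR fit over all genes gave log2 differences of −1.31 (SE 0.39) for spleen minus bone marrow and −1.47 (SE 0.43) for thymus minus spleen. For thymus minus bone marrow it gave −2.78 (SE 0.43). The SD of log2 CPM within a tissue was 0.61. This SD is taken between the female and the male library, so it holds the sex difference that the fit takes out. The steps to and from spleen leaned on single libraries. Thymus minus spleen was −0.67 without female spleen and −2.31 without male spleen, and spleen minus bone marrow was −2.17 and −0.55 without them. Without male bone marrow the latter was −0.84.

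Mt2 followed the same order at a lower level. In bone marrow it was 34.8 CPM in the female library (200 UMIs, interval 30.1 to 39.96) and 61.6 CPM in the male library (577 UMIs, 56.7 to 66.8). In spleen it was 18.1 CPM for females (386 UMIs, 16.3 to 19.96) and 23.1 CPM for males (185 UMIs, 19.9 to 26.6). In thymus it rested on 2 UMIs for females (7.07 CPM, 0.856 to 25.5) and 9 UMIs for males (7.27 CPM, 3.33 to 13.8). The point values of the tissues again did not overlap, but the counting interval of female thymus holds both spleen levels. The fitted log2 differences were −1.17 (SE 0.26) for spleen minus bone marrow, −1.88 (SE 0.47) for thymus minus spleen and −3.05 (SE 0.44) for thymus minus bone marrow, with a within-tissue SD of 0.37. Mt1 UMIs outnumbered Mt2 UMIs 7.95-fold and 9.91-fold in bone marrow, female library first, 9.39-fold and 6.41-fold in spleen, and 13.2-fold in male thymus. Their 3-exon transcripts are of similar length, 549 bases for Mt1-201 and 511 for Mt2-201, and a 5' library counts a transcript once whatever its length.

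**Figure D1:**
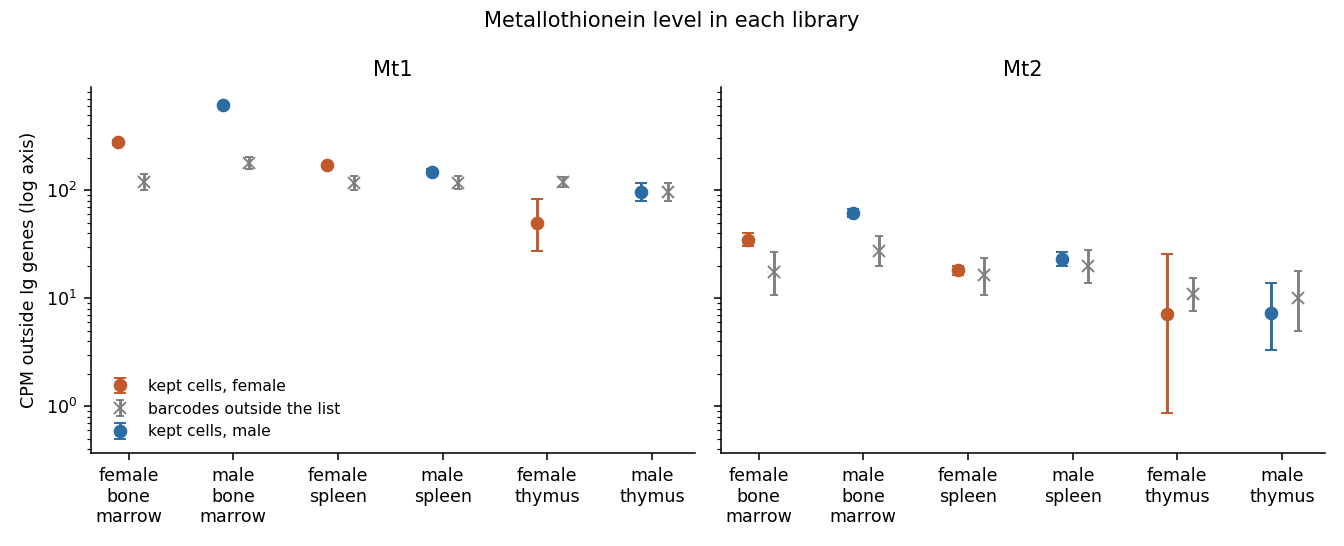
Mt1 (left) and Mt2 (right) in the cells kept from each library, in CPM outside immunoglobulin genes on a log axis, with exact Poisson intervals; grey crosses give the level in barcodes outside the filtered list. Mt1 falls from 611 and 276 CPM in bone marrow to 96.2 and 49.5 CPM in thymus, where the points lie at or below the crosses.

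Free RNA was measured in barcodes outside the filtered list with at most 100 UMIs. For female and male libraries, Mt1 stood there at 119 and 178 CPM in bone marrow, 116 and 117 CPM for spleen and 119 and 96.1 CPM for thymus. Mt2 stood there at 17.3 and 27.5, 16.3 and 19.97, and 10.96 and 9.97 CPM. For Mt1, kept cells were above this level in bone marrow and spleen and at or below it in thymus, while for Mt2 the counting intervals overlapped in spleen and thymus. Cells of low ribosomal share, as defined further on and the majority in each library, had less Mt1 than these barcodes by point value. They stood at 79.5 and 163 CPM in bone marrow, 75.1 and 66.3 CPM for spleen and 59.7 and 47.4 CPM for thymus. In male bone marrow the counting intervals overlapped, at 150 to 177 CPM in low cells and 157 to 200 CPM in these barcodes. How much free RNA each kept cell carried was estimated from its light-chain V UMIs other than those of the leading gene. Observed Mt1 UMIs were 23.3 and 29.8 times that estimate in bone marrow, 5.87 and 6.44 times for spleen and 8.11 and 11.4 times for thymus. In female thymus, 9 of the 14 Mt1 UMIs lay in 1 cell, whose barcode also stood in the list of another library and for which 65.0% of UMIs were estimated to be free RNA. Without that cell, Mt1 in female thymus was 18.0 CPM (5 UMIs, interval 5.85 to 42.0).

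Each pair of libraries shared between 24 and 247 barcodes, and 570 kept cells had such a barcode. Without them Mt1 was 240 and 591 CPM in bone marrow, female library first, 169 and 151 CPM for spleen and 22.8 and 98.1 CPM for thymus, which keeps the tissue order. Neutrophil markers also moved with tissue. All 7 were detected in both bone marrow libraries, summing to 410 CPM (female) and 1406 CPM (male), against 0.14 and 0.125 CPM in spleen, and all 7 were at 0 in thymus. In bone marrow cells with no neutrophil marker UMI, Mt1 was 225 CPM in 889 female cells and 708 CPM in 1105 male cells, again above spleen. Summed markers of macrophages were at 31.8 to 81.6 CPM, lowest in thymus. Those of B cells were at 149 to 229 CPM and those of T cells at 6.23 to 77.8 CPM, both sums highest in thymus. Of the 7 B cell markers, however, Fcer2a, Cr2 and Pax5 were at 0 in both thymus libraries and Cd22 in female thymus. The B cell sums of female and male thymus rest on 52 and 283 UMIs, and all 7 markers were detected in every bone marrow and spleen library. Single T cell markers did not all follow their sum. Trbc1 was at 0 in all 4 bone marrow and spleen libraries. Cd3g, Trac and Cd4 were detected in those libraries but were at 0 in female thymus, whose T cell sum rests on 22 UMIs. Cd4 was at 0 in male thymus too. All 7 erythroid markers were at 0 in both thymus libraries and summed to 5.52 to 25.4 CPM elsewhere. Those of plasmacytoid dendritic cells stood at 1005 to 1018 CPM in thymus and 678 to 723 CPM elsewhere. Of these 5 markers, Siglech was at 0 in male thymus and in male bone marrow. Whether this RNA came from other cell types, and its part in the tissue differences, was not tested.

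Mt1 was found in 25.9% of female and 38.0% of male cells of bone marrow, in 27.5% and 19.9% of spleen cells, and in 4.51% and 11.5% of thymus cells. Mt2 was found in 7.77% and 14.0% of bone marrow cells, 6.47% and 5.74% of spleen cells, and 1.504% and 2.25% of thymus cells. Median depth ran from 1738 UMIs in female thymus to 4180 in female spleen, the only library whose share of cells with Mt1 went against the order of the levels. With every cell thinned to 500 UMIs, Mt1 was found in 7.47% and 11.2% of bone marrow cells, 5.33% and 4.16% of spleen cells, and 3.01% and 3.66% of thymus cells, which is the order of the levels in both sexes. The exact binomial intervals of spleen and thymus overlapped, however, at 4.62% to 6.10% and 0.825% to 7.52% for females and 3.32% to 5.14% and 1.96% to 6.18% for males. In listed barcodes that failed the light-chain rule, at median depths of 784 to 1397 UMIs, the unthinned share was 3.38% to 18.8%.

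Mt1 UMIs were concentrated in a small share of cells. Of the 9213 kept cells, 253 had at least 10 Mt1 UMIs, and these 2.75% of cells held 60.9% of all Mt1 UMIs, or 47.7% without male bone marrow. Within the libraries they held 58.6% (female) and 76.0% (male) of Mt1 UMIs in bone marrow, 46.5% and 37.4% for spleen and 0 and 51.3% for thymus. They numbered 33 (female) and 116 (male) in bone marrow, 77 and 22 for spleen and 0 and 5 for thymus. A fixed limit of 10 UMIs is passed by more cells where the level is higher. The top 1% of cells held 42.7% (female) and 41.3% (male) of the library's Mt1 UMIs in bone marrow, 32.3% and 35.7% for spleen and 71.4% and 42.9% for thymus, where the female library has 14 such UMIs. Of the 253 cells, 242 had a high ribosomal share as defined further on. The highest cell of all, in male bone marrow, held 540 Mt1 and 43 Mt2 UMIs among 14527 UMIs, with Igha as its leading heavy chain and Igkv3-7 at 93.1% of its light-chain V UMIs. It had no UMI of the macrophage, B cell, T cell, neutrophil or cycling markers. The next 5 cells held 239, 235, 232, 213 and 196 Mt1 UMIs, the second of these from female and the others from male bone marrow, and each was led by Ighm and by a light-chain V gene of its own. Beside this, neutrophil markers summed to 4450 CPM in the 33 female bone marrow cells, all of high ribosomal share, against 51.1 CPM in the other 378 high cells of that library. For males the values were 81.0 and 49.2 CPM. Summed stromal, epithelial and endothelial markers were higher in high cells with at least 10 Mt1 UMIs than in the other high cells. This held in all 5 libraries with such cells, at 156 to 240 against 116 to 197 CPM. Of these 8 markers, Col3a1 and Krt5 were at 0 in the kept cells of all 5 libraries. Krt8 was at 0 in bone marrow and spleen, and Col1a1 in male bone marrow and male thymus, so the sums come from the remaining genes. T cell markers were higher there in 3 of these libraries, at 20.4 to 32.0 against 8.26 to 14.6 CPM, and at 0 in the other 2. B cell markers were lower in bone marrow and spleen, at 105 to 121 against 139 to 150 CPM, and higher in male thymus (449 against 192 CPM, 4 cells). Macrophage markers were lower in female bone marrow and female spleen and higher in the male libraries. Plasmacytoid dendritic cell markers were higher in female spleen only (670 against 639 CPM). The part of these markers in the Mt1 level of the cells was not tested.

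**Figure D2:**
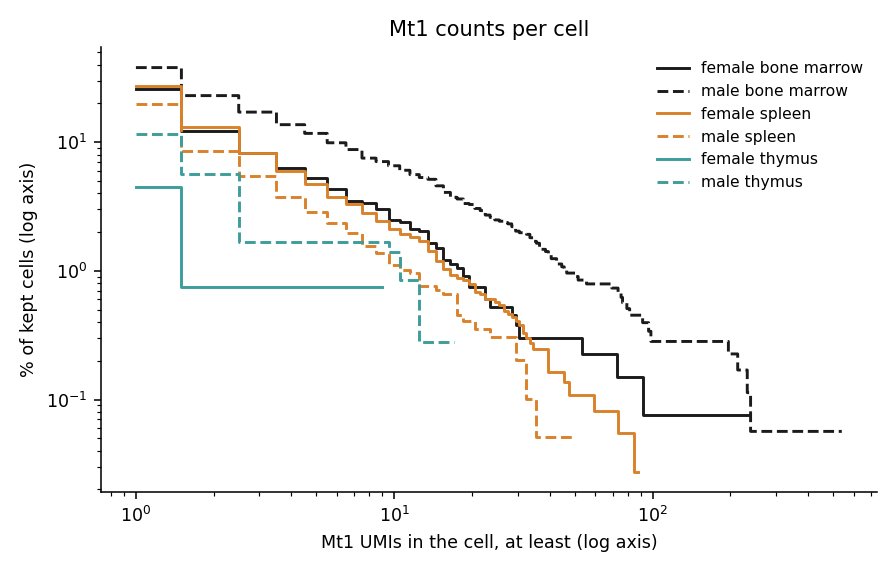
Share of kept cells (y, log axis) with at least a given number of Mt1 UMIs (x, log axis) in each library; solid lines are female and dashed lines male libraries. The male bone marrow line lies above the others over its whole length and ends at 540 UMIs, while the thymus lines end at 9 and 17.

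In bone marrow and spleen, cells with Mt1 had Mt2 more often than cells without it. In female bone marrow 20.1% of cells with Mt1 also had Mt2, against 3.46% of cells without Mt1. The matching shares were 29.6% and 4.38% in male bone marrow, 16.9% and 2.52% in female spleen, and 15.6% and 3.30% in male spleen. Deep cells show more of every gene, so the counts were repeated at 500 UMIs a cell in 1 random draw. Both genes were then seen in 8 cells of female bone marrow where independence within the library gives 1.12, in 7 against 2.80 for male bone marrow, in 6 against 1.07 for female spleen and in 2 against 0.791 for male spleen. Separate draws within the ribosomal classes gave 14 against 4.40 in high and 4 against 0.928 in low cells of male bone marrow, and 4 against 1.14 and 1 against 0.218 in those of female spleen. For female bone marrow they gave 1 against 0.547 and 0 against 0.197, and for male spleen 1 against 0.571 and 0 against 0.245. Such counts are too few to tell whether the excess in all cells of female bone marrow held within its classes. These counts are small and vary between draws, and in thymus thinned counts were too low to be read. Without thinning, high cells with Mt1 had Mt2 in 30.2% against 6.03% of those without for female bone marrow and 41.2% against 7.69% for male bone marrow. For spleen the shares in high cells were 20.4% against 3.25% (female) and 26.3% against 1.78% (male). Both genes were seen in 64 high cells of female bone marrow, where independence gives 39.2. Low cells with Mt1 had Mt2 in 3.82% against 2.81% of those without for female bone marrow and 13.5% against 3.72% for male bone marrow. For spleen the shares in low cells were 8.01% against 2.05% (female) and 7.56% against 3.48% (male). Across the cells of a library, which share free RNA and differ in depth, Pearson's r of raw Mt1 and Mt2 counts was 0.447 and 0.866 in bone marrow, female library first, and 0.426 and 0.616 in spleen. It was 0.681 in female thymus, from 1 cell with both genes, and 0.102 in male thymus. In high cells r was 0.431 and 0.875 for bone marrow and 0.423 and 0.647 for spleen. In low cells it was 0.0828 and 0.439 for bone marrow and 0.263 and 0.136 for spleen. The 540-UMI cell is among the male bone marrow points. Of the 253 cells with at least 10 Mt1 UMIs, 65.2% had Mt2, against 6.08% of the other 8960. Depth was not matched in this split. By library the cells with at least 10 Mt1 UMIs had median depths of 9846 to 12031 UMIs, against 1738 to 4180 for all kept cells. Of the 253, 242 were high cells, and high cells as a whole had Mt2 in 10.2% to 30.5% outside thymus.

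Cells were divided by ribosomal share, the percentage of UMIs outside immunoglobulin genes that come from Rpl and Rps genes, with high meaning at least 10%. In bone marrow, Mt1 was 394 CPM in 411 high cells and 79.5 CPM in low cells of the female library, and 902 CPM in 573 high cells against 163 CPM in the male library. In spleen it was 205 CPM in 1767 high cells against 75.1 CPM for females, and 288 CPM in 336 high cells against 66.3 CPM for males. In male thymus it was 155 CPM in 65 high cells against 47.4 CPM. The 15 high cells of female thymus held 1 Mt1 UMI (15.4 CPM, interval 0.389 to 85.7) against 59.7 CPM in low cells. Of the 13 Mt1 UMIs in those low cells, 9 lay in the 1 cell with 65.0% estimated free RNA, whose ribosomal share was 8.72%. High cells were above low cells in 5 of 6 libraries, and the mean log2 difference, low minus high, was −1.43 (SD 1.45, n = 6 libraries, 0.5 UMI added to each sum), smaller than its SD. Mean and SD include female thymus, which stood apart at 1.43 while the others lay between −2.47 and −1.45. Its value rests on 1 UMI in high cells and mostly on 1 cell in the low class.

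Mt2 showed the same split outside thymus. High and low cells had 47.5 and 13.5 CPM in female bone marrow, and 85.0 and 25.7 CPM in male bone marrow. In spleen they had 20.6 and 11.3 CPM for females and 39.0 and 13.8 CPM for males. Male thymus held 3 Mt2 UMIs in high and 6 in low cells, and female thymus 0 and 2, where the interval of the count of 0 reaches 56.8 CPM. The mean log2 difference, low minus high, was −0.78 (SD 1.12, n = 6 libraries), smaller than its SD. The classes also differ in depth and mitochondrial share. Outside thymus, high cells had median depths of 7924 to 9898 UMIs and median mitochondrial shares of 1.95% to 2.08%, against 2236.5 to 3009 UMIs and 5.40% to 7.11% in low cells, and their part in the class difference was not tested. Observed over estimated free RNA for Mt1 was 38.6 and 47.9 in high against 5.47 and 7.10 in low cells of bone marrow, and 7.73 and 15.3 against 2.14 and 2.62 in spleen. Next to the limit, the 328 cells at 8% to 10% had 203 CPM of Mt1 and the 482 cells at 10% to 12% had 337 CPM. Next to the light-chain limit, 2590 barcodes at 40% to 50% had 83.9 CPM and 2097 cells at 50% to 60% had 94.9 CPM.

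**Figure D3:**
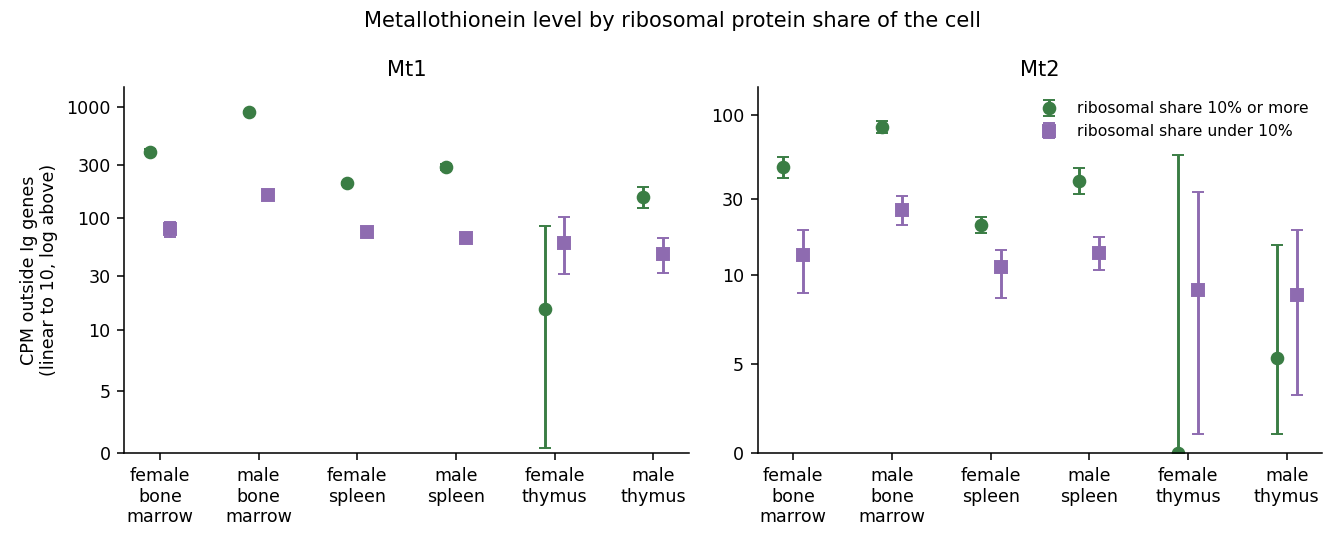
Mt1 (left) and Mt2 (right) in CPM outside immunoglobulin genes (linear to 10, log above) for cells of high (circles) and low (squares) ribosomal share in each library, with exact Poisson intervals. Mt1 is higher in the high class in 5 of 6 libraries, 902 against 163 CPM in male bone marrow. In female thymus the high class rests on 1 UMI and the low class on 13, 9 of them in 1 cell.

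Among high cells, Mt1 was also set against markers of division, and the result depended on how the cells were split. High cells with at least 3 UMIs of the 7 cycling markers had 245 CPM of Mt1 in female bone marrow (37 cells), against 424 CPM in the other high cells, and 187 CPM in male bone marrow (39 cells), against 1004 CPM. In spleen they had 167 CPM against 220 CPM for females (292 cells) and 201 CPM against 303 CPM for males (27 cells). Mt2 was likewise lower, at 8.35 against 55.3 CPM and 11.4 against 95.4 CPM in bone marrow, and 13.7 against 23.3 CPM and 27.4 against 41.0 CPM in spleen. Mt3 went the other way, with 51.8 against 17.3 CPM in female bone marrow and 30.6 against 11.6 CPM in female spleen. For males it had 15.7 against 5.64 CPM in bone marrow and 48.0 against 11.1 CPM in spleen. Split the other way, the summed cycling markers were higher in high cells with at least 10 Mt1 UMIs than in the other high cells for females, at 625 against 415 CPM in bone marrow and 818 against 521 CPM in spleen. For males they were lower, at 81.0 against 391 CPM and 64.6 against 322 CPM. Both splits use raw UMI limits, which deep cells pass more often. In bone marrow and spleen, median depths were 13235 to 14490 UMIs with at least 3 cycling UMIs, against 7453 to 9710 in the other high cells. Cells with at least 10 Mt1 UMIs had medians of 9846 to 11339 UMIs there. These splits use measured values of the same cells and carry no test.

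By isotype, taken from the top heavy constant gene, IgM cells were the most numerous in every library. Mt1 in IgM cells was 295 CPM (female) and 561 CPM (male) in bone marrow, 181 and 163 CPM for spleen and 58.5 and 123 CPM for thymus. In IgG cells it was 174 and 666 CPM in bone marrow, 126 and 52.3 CPM for spleen and 43.5 and 11.5 CPM for thymus, the last 2 from 2 UMIs each. IgG cells were lower than IgM cells in 5 of 6 libraries, and in male bone marrow 1 IgG cell held 98 of 217 UMIs, without which the level was 372 CPM. In female thymus 1 IgM cell held 9 of 11 UMIs. Without it IgM stood at 10.9 CPM there, below the levels of IgG cells and of IgA cells (20.5 CPM, 1 UMI). The mean log2 difference, IgG minus IgM, was −0.99 (SD 1.21, n = 6 libraries), smaller than its SD.

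IgA cells had 203 and 2092 CPM of Mt1 in bone marrow, female library first, 186 and 32.8 CPM for spleen and 20.5 and 15.7 CPM for thymus. The 2092 CPM rests on the 540-UMI cell, which holds 540 of 569 UMIs. Without it, Mt1 in male bone marrow IgA cells was 113 CPM (63 cells, interval 75.4 to 162), below the IgM level. The mean log2 difference, IgA minus IgM, was −0.74 (SD 1.64, n = 6 libraries), and −0.98 with the cell of most Mt1 left out of each library. Mt2 had 36.9 and 57.6 CPM in IgM, 25.1 and 67.5 CPM in IgG, and 23.6 and 184 CPM in IgA cells of bone marrow, the 184 CPM falling to 27.2 CPM without the 540-UMI cell. In spleen Mt2 had 19.7 and 25.1 CPM in IgM, 15.3 and 11.1 CPM in IgG, and 8.28 and 6.56 CPM in IgA cells, the last from 1 UMI. Its mean log2 differences were −0.35 (SD 0.46) for IgG minus IgM and −0.50 (SD 1.14) for IgA minus IgM, both within the SD between 6 libraries.

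**Figure D4:**
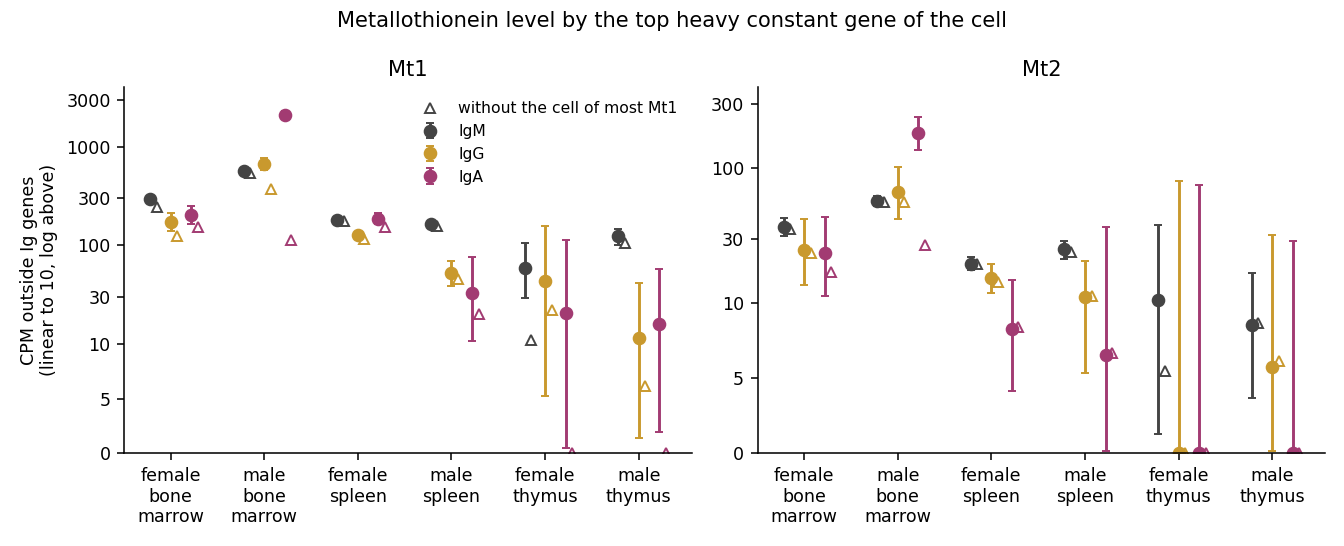
Mt1 (left) and Mt2 (right) in CPM outside immunoglobulin genes (linear to 10, log above) in IgM, IgG and IgA cells of each library, with exact Poisson intervals; open triangles leave out the cell of each class with most Mt1. In male bone marrow the IgA point falls from 2092 to 113 CPM without 1 cell.

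Sex was not part of how the genes or cells were chosen, so it was tested. Male minus female Mt1 was 0.42 on the log2 scale (SE 0.34) over the 6 libraries and did not pass edgeR's quasi-likelihood test (adjusted p = 0.718). Mt2 was 0.33 (SE 0.25, edgeR adjusted p = 0.701). Both leaned on bone marrow: without its female or male library Mt1 was 0.07 in both fits, and Mt2 was −0.0500 and −0.0498. At the 90% light-chain limit Mt1 was 1.10 and Mt2 0.79, and neither passed. Of 11268 genes tested, edgeR called 0.390% in this contrast. By tissue, Mt1 was higher in the male library in bone marrow and thymus and lower in spleen. Mt2 was higher in the male library in all 3 tissues as CPM, but after TMM scaling spleen stood at 22.3 CPM for females and 21.6 CPM for males.

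Among high ribosomal cells alone, the fitted male minus female difference was 0.81 for Mt1 (SE 0.16, edgeR adjusted p = 4.5e-05) and 0.77 for Mt2 (SE 0.14, edgeR adjusted p = 1.4e-05). This contrast called 4.60% of 9688 genes, against 0.390% of 11268 over all kept cells, where neither Mt1 nor Mt2 passed. Female thymus gave this fit 15 high cells with 1 Mt1 UMI and 0 Mt2 UMIs. In bone marrow and spleen the male level of both genes lay above the female level. Both calls were lost without either bone marrow library or either spleen library, at 0.75 to 1.37 with edgeR adjusted p-values of 0.0609 to 1. Without cells of shared barcodes, Mt1 was 0.93 and did not pass (edgeR adjusted p = 0.139), and Mt2 was 0.76 and passed (adjusted p = 0.0015). Among low cells Mt1 was 0.22 (SE 0.18, edgeR adjusted p = 0.574) and Mt2 0.44 (SE 0.26, adjusted p = 0.390), in a contrast that called 3.71% of 10394 genes. The difference between the classes was not tested.

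Mt3, a member known mainly from brain, was rare. In bone marrow it had 97 UMIs in the female library and 44 in the male library (16.9 and 4.70 CPM), in spleen 280 and 61 (13.1 and 7.61 CPM), and in thymus 0 and 7 (0 and 5.66 CPM). Females were higher in bone marrow and spleen. Over the 6 libraries it fell in males by 1.40 on the log2 scale (SE 0.31, edgeR adjusted p = 0.0423), opposite in sign to Mt1 and Mt2. DESeq2 did not call it (−1.22), and the edgeR call was lost without either bone marrow library (−0.86 and −0.87) with a light-chain limit of 90% (−0.60) and with free RNA subtracted (−1.43, edgeR adjusted p = 0.809). Mt4, known from stratified epithelium, had 0 UMIs in every library, which by a floor of 3 counts allows from 0.14 CPM in female spleen to 10.6 CPM in female thymus. Gm45774, a gene annotated on the strand opposite to Mt2, reached at most 1.07 CPM.

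Of 11 listed neighbours of the cluster, 8 could be tested, and edgeR called Mt3 between sexes and no other in any contrast. Of all genes, edgeR called 0.719% for thymus minus bone marrow, 0.559% for thymus minus spleen, 0.390% for spleen minus bone marrow and 0.390% for male minus female. In that order 1, 0, 1 and 2 neighbours had an unadjusted p under 0.05, against 8.72%, 9.24%, 4.65% and 9.61% of all genes, the shares against which such counts are read from here on, and DESeq2 called no neighbour. Their median log2 difference for thymus minus bone marrow was −0.43, against −0.02 for all genes. Herpud1, a component of endoplasmic-reticulum-associated degradation, stood at 1124 to 1374 CPM in every library.

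Among genes that handle metals, none passed the test. Of 25 zinc genes, 18 were tested and edgeR called 0 in thymus minus bone marrow, where it called 0.719% of all genes, 0 in thymus minus spleen (0.559%), and 0 in spleen minus bone marrow (0.390%) and in male minus female. DESeq2 called 0 too, and in that order 1, 0, 0 and 0 had an unadjusted p under 0.05. Their median for thymus minus bone marrow was 0.17. Mtf1, which encodes the zinc sensor, stood at 17.8 to 23.4 CPM in 5 libraries and at 38.9 CPM, from 11 UMIs, in female thymus, and its fitted thymus minus bone marrow difference was 0.14 (SE 0.34). Slc39a7, which releases zinc from the endoplasmic reticulum, had a log2 difference for thymus minus bone marrow of 0.06 (SE 0.35). Of 10 copper genes, 9 were tested and none was called by edgeR or DESeq2, with 4, 4, 0 and 1 at an unadjusted p under 0.05, against 8.72%, 9.24%, 4.65% and 9.61% of all genes, and a median for thymus minus bone marrow of −0.74. Cox17, which carries copper to cytochrome oxidase, had −0.96 (SE 0.40) there and Atox1, a copper chaperone, −0.77 (SE 0.38).

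Lists for other inputs known to raise metallothioneins were tested too. Of 8 glucocorticoid-response genes tested, 1 was called between sexes, against 0.390% of all genes. Dusp1, a MAP kinase phosphatase, fell in males by 1.82 (SE 0.27, edgeR adjusted p = 0.00041). Its levels were 31.5 CPM (female) and 7.90 CPM (male) in bone marrow, 19.2 and 6.73 CPM for spleen and 17.7 and 12.9 CPM for thymus. No gene of the list was called between tissues, by edgeR or DESeq2, and 0 had an unadjusted p under 0.05 there. Tsc22d3, an early glucocorticoid target, had a male minus female difference of −0.06 (SE 0.25).

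Of 9 immediate early genes, which cells switch on within minutes of a stimulus, edgeR called 2 for thymus minus bone marrow (0.719% of all genes), 1 for thymus minus spleen (0.559%), 0 for spleen minus bone marrow (0.390%) and 2 for male minus female (0.390%). In that order 6, 5, 2 and 6 had an unadjusted p under 0.05, and the medians were −1.04, −0.82, −0.15 and −0.69. Fos fell from bone marrow to thymus by 1.72 (SE 0.38, edgeR adjusted p = 0.0243) and Egr1 by 2.71 (SE 0.43, adjusted p = 0.00052). Egr1 was also lower in thymus than in spleen (−2.10, SE 0.44, edgeR adjusted p = 0.0195), which DESeq2 did not call (adjusted p = 0.0681). DESeq2 called 1 other gene of the list in that contrast. Fos fell in males by 1.81 (SE 0.31, edgeR adjusted p = 0.0031) and Fosb by 2.22 (SE 0.37, adjusted p = 0.0019). Fos stood at 464 CPM (female) and 95.5 CPM (male) in bone marrow, where Mt1 had the opposite order of the sexes. The calls of Dusp1, Fos and Fosb between sexes were lost without either bone marrow library, at −1.23 to −1.51, and with free RNA subtracted (−1.85, −1.91 and −2.27, edgeR adjusted p = 0.175, 0.180 and 0.432). Those of Fos and Fosb were also lost with libraries thinned to the shallowest (−1.65 and −2.09). From bone marrow to thymus, Fos lost its call without either bone marrow library or female thymus (−2.20 to −1.25), at the 90% light-chain limit (−2.33) and with free RNA subtracted (−1.81). Egr1 lost it there without male bone marrow (−2.30), at the 90% limit (−2.91) and thinned (−2.20). Its call against spleen was lost without either bone marrow library or male thymus (−2.05 to −1.92), at the 90% limit (−1.96), thinned (−1.95), with free RNA subtracted (−2.47) and in high ribosomal cells (−2.68).

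No gene was called by edgeR or DESeq2 among 13 oxidative-stress genes, 10 heat-shock genes, 14 hypoxia genes and 8 IL-6 and STAT3 genes. For thymus minus bone marrow, thymus minus spleen, spleen minus bone marrow and male minus female, an unadjusted p under 0.05 was seen for 3, 3, 0 and 0 oxidative-stress genes, 1, 0, 2 and 5 heat-shock genes, 2, 1, 0 and 1 hypoxia genes, and 1, 2, 2 and 1 IL-6 and STAT3 genes, against 8.72%, 9.24%, 4.65% and 9.61% of all genes. The median of the oxidative-stress genes for thymus minus bone marrow was −0.37, and Fth1, the ferritin heavy chain, had −1.01 (SE 0.44).

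The genes most like each member were ranked by Pearson's r of log2(CPM + 5) over 11 strata, each a library and ribosomal class with at least 20 cells, among 5981 genes. The strata share libraries and depth, and r is a description. For Mt1 the leading genes were Aldoa (0.95), a glycolytic enzyme, Blvrb (0.94), a biliverdin reductase, Mdh1 (0.93), the cytosolic malate dehydrogenase, Kcnmb4os2 (0.93) and Naxe (0.91), with Mt2 ranked 18 (0.88). For Mt2 the leading gene was Mt1 (0.88), followed by Ctss (0.86), a lysosomal protease, Sdhaf1 (0.85), Nacc2 (0.85) and Sfxn1 (0.85).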

How the data were processed

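The authors deposited UMI count matrices of the listed barcodes and of all barcodes, as whole counts that are not normalized. Cell Ranger 6.0.2 made the matrices of listed barcodes per the file headers, which name Cell Ranger 4 for those of all barcodes. The builds mm10 and GRCm38 are named per the submitters' processing notes. Libraries held 1367972 to 85749785 UMIs in listed barcodes. The 395 genes starting with Igh, Igk or Igl were left out of all totals. UMIs of kept cells were summed per library and fitted with edgeR 4.0.16 in R 4.3.3 (TMM, filterByExpr, quasi-likelihood test, sex plus tissue, Benjamini-Hochberg adjustment over 11268 genes at 0.05), checked on simulated data. DESeq2 1.42.0, other cell filters, scalings, free-RNA subtraction, thinning and leaving out libraries were alternatives. No doublet caller was run, and the V(D)J libraries were not used here. The members, lists and rules were chosen with earlier results of these data known. Named genes are the members, Mt3, Mt4, list genes called, up to 2 uncalled genes of a list with the highest level, and the 5 most alike. Mtf1 and Gm45774 were chosen after their values were seen. Leaving out shared barcodes or the cell with most Mt1, and the repeats within high ribosomal cells, were added after seeing the data.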

Additional observations from a re-analysis of the deposited data

Results flagged for a closer look

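The sign of the male-minus-female difference in Mt1 was not the same in the 3 tissues. On the log2 scale of CPM it was 1.14 in bone marrow, −0.20 in spleen and 0.96 in thymus. With 1 library per sex and tissue, the difference between tissues was not tested. The counting intervals, which leave out the spread between pools, were 1.06 to 1.22 in bone marrow, −0.29 to −0.10 in spleen and 0.16 to 1.87 in thymus. In spleen, 1767 of 3661 female and 336 of 1970 male cells were of high ribosomal share, and within that class Mt1 was 205 CPM for females and 288 CPM for males, while in low cells it was 75.1 and 66.3 CPM.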

How the results depend on the processing

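The tissue order of Mt1 and Mt2 kept its direction under every alternative run, while its size and the number of genes called moved. Main counts of genes called were 81 for thymus minus bone marrow, 63 for thymus minus spleen, 44 for spleen minus bone marrow and 44 for male minus female. In that order they were 127, 127, 100 and 101 with no filter on low counts, 124, 136, 352 and 446 in high and 159, 452, 278 and 386 in low ribosomal cells, 27, 16, 7 and 19 with a light-chain limit of 90%, 25, 19, 14 and 6 with free RNA subtracted, and 16, 0, 3 and 3 with libraries thinned to the shallowest (edgeR, where 445 of the genes for thymus minus spleen had an unadjusted p under 0.05). DESeq2 called 7 for spleen minus bone marrow and 9 for male minus female. Without shared barcodes 235 and 374 were called for thymus minus bone marrow and thymus minus spleen. Leaving out 1 library at a time gave 18 to 351, 32 to 933, 12 to 168 and 10 to 210, and 12 to 849 between sexes in high cells, the latter with 763 and 849 without female or male thymus. In high cells, 449 were called without the cell of most Mt1 and 255 without shared barcodes.

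For thymus minus bone marrow, Mt1 was −1.39 in low cells and −3.58 at the 90% limit, and Mt2 −4.17 in high cells, −1.34 in low cells and −4.04 at the 90% limit. For thymus minus spleen, Mt1 was −0.67 in low cells and −2.52 at the 90% limit, and Mt2 −3.00, −0.73 and −3.18 in the order given for Mt2 before, and −1.39 thinned. The thymus values of Mt2 rest on 0 (female) and 3 (male) UMIs in high cells and on 2 and 6 in low cells. The counting interval of the count of 0 reaches 56.8 CPM, so the sizes in the 2 classes cannot be compared. For spleen minus bone marrow, Mt2 was −0.62 in low cells and −1.57 thinned. Mt2 for IgG minus IgM was −0.92 at the 90% limit. Without 1 library, Mt1 ranged from −3.33 to −2.23 for thymus minus bone marrow, −2.31 to −0.67 for thymus minus spleen and −2.17 to −0.55 for spleen minus bone marrow, and Mt2 from −3.29 to −2.55, −2.35 to −1.61 and −1.53 to −0.78.

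Male minus female was 0.81 for Mt1 and 0.77 for Mt2 in high cells, 0.82 and 0.70 there without the cell of most Mt1, and 0.76 for Mt2 there without shared barcodes. Without 1 library it was 0.07 to 1.03 for Mt1 and −0.0500 to 0.68 for Mt2, whose sign turned without female or male bone marrow (−0.0500 and −0.0498), and in high cells 0.74 to 1.37 and 0.75 to 0.83. The causes were not tested. Depth limits thymus most, where Mt2 rests on 2 and 9 UMIs.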

Other observations

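In male spleen, 12 of the 21 high ribosomal cells with at least 10 Mt1 UMIs had Igkv5-39 as their leading light-chain V gene, a gene chosen after its values were seen. It led 137 of the 336 high ribosomal cells of the library, with 426 CPM of Mt1 against 202 CPM in the other 199, and 62.6 against 24.2 CPM of Mt2. In female spleen it led 210 high cells, at 200 CPM of Mt1 against 206 CPM in the rest. In female bone marrow it led 27 cells at 1363 CPM against 319 CPM, where 1 cell holds 235 of 351 UMIs and the other 26 had 468 CPM, and in male bone marrow 13 cells at 354 CPM against 917 CPM.

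Among high ribosomal cells, Mt1 was also read by how far a single light-chain V gene led the cell, and it did not change steadily in every library. In female spleen, cells whose leading gene held at least 95% of light-chain V UMIs had 373 CPM (119 cells), against 193 CPM at 90% to 95%, 200 CPM at 70% to 90% and 172 CPM at 50% to 70%. Male spleen had 329, 324, 174 and 209 CPM over the same ranges, male bone marrow 962, 922, 598 and 393 CPM, and female bone marrow 409, 434, 217 and 235 CPM. In that order of libraries, 50% to 70% held 28, 14 and 19 cells with 35, 46 and 28 Mt1 UMIs. Of these UMIs, 17, 26 and 19 lay in 1 cell. Free RNA, estimated from the same light-chain V UMIs, was 63.0%, 69.4% and 67.5% there. At 95% or more it was 4.39% in male and 3.53% in female bone marrow. The part of free RNA in these levels was not tested. Male thymus went the other way, with 92.3 CPM in 41 cells of at least 95% and 802 CPM in 4 cells at 50% to 70%. All 65 high cells of that library held 87 Mt1 UMIs, 17 of them in 1 cell whose barcode also stood in another list.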
